A study of Mus musculus with 12 samples.

Results

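The Ifitm genes encode interferon-induced transmembrane proteins, and 7 of the 55487 genes in the deposited table carry a family symbol: Ifitm1, Ifitm2, Ifitm3, Ifitm5, Ifitm6, Ifitm7 and Ifitm10. The family came to notice because the fall of Ifitm1 between E16.5 and P0 was among the steepest in an earlier look at these data, and its members were then chosen by their symbols. The values that chose the family are therefore those of Ifitm1 at E16.5 and P0. They are given below as a description, and no comparison of P0 with E16.5 was tested for any member. Ifitm1 was tested only between P3 and E13.5.

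IFITM proteins are small membrane proteins of the CD225, or dispanin, superfamily. They sit in the plasma membrane and in endosomes and lysosomes, where Ifitm1, Ifitm2 and Ifitm3 are known to hinder the entry of enveloped viruses, and their transcription is raised by interferons in many cell types. In the mouse, Ifitm3 (also called fragilis) and Ifitm1 are in addition known as genes of primordial germ cells, the founders of the germ line, where they mark the cells from their specification onwards.

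RNA was sequenced from 12 libraries of male germ cells, taken from the testis of Mvh-Venus transgenic mice, in which a fluorescent reporter marks the germ line. Each of 4 stages had 3 libraries: E13.5 and E16.5, named by the embryonic day, and P0 and P3, counted in days from birth. The labels name no agent. Titles and source names describe every sample as wild type, whereas the genotype tag reads Morc1 (+/-) at E13.5 and P0 and Morc1 (-/-) at E16.5 and P3. Groups were formed by stage, so P0 against E13.5 and P3 against E16.5 stay within 1 genotype tag, and in every other comparison stage and tag cannot be told apart. The comparisons ask how the family's transcripts differed between stages of male germ cell development. Nothing in the labels says that libraries of a stage came from separate animals, so p-values measure the spread between these libraries, which may be technical.

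The libraries are named by stage and by the number 1, 3 or 4 in the column heads. Reads assigned to genes numbered 40946616 to 51533747 per library. Morc1 itself ranged from 1621 to 1830 normalized counts (reads divided by a size factor of the library) at E13.5, and the other ranges were 28328 to 32917 for E16.5, 7280 to 7708 for P0 and 10584 to 11129 for P3, so the stages tagged Morc1 (-/-) did not have the lowest levels. The 8 germ cell markers, which include Ddx4 and Dazl, summed to between 152361 and 336871 normalized counts in every library. All of the 8 Sertoli, 6 Leydig, 5 peritubular and 6 erythroid markers had reads, and the Sertoli sum was lowest at E13.5 (1372 to 2150) and highest at P0 (11097 to 21170). In bulk libraries, fewer cells of a type and less RNA per cell cannot be told apart.

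Of the 7 genes, 6 lie on chromosome 7 in GRCm38 by the GENCODE M21 annotation. Ifitm5, Ifitm2, Ifitm1, Ifitm3 and Ifitm6 form a block of 69.0 kb, from 140948958 to 141017924. In this block only Ifitm1, at 140967221 to 140969825, is on the + strand, and Ifitm2, at 140954837 to 140955987, and Ifitm3, at 141009586 to 141010770, are on the - strand. Ifitm10 lies farther along the same chromosome, at 142325837 to 142373753 on the - strand. Ifitm7 lies apart on chromosome 16, at 13981699 to 13986888 on the - strand. All 7 are annotated as protein coding.

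The promoters of Ifitm1, Ifitm2 and Ifitm3 are shown because these 3 neighbours were the most abundant members at E13.5 and E16.5 and were each far lower at P3 than at E13.5. Each window holds the 250 bases before the RefSeq start base and the first 30 bases from it, on the gene's strand, in build GRCm38.p6. The windows are chr7:140967826-140968105 on the + strand for Ifitm1, chr7:140955932-140956211 on the - strand for Ifitm2 and chr7:141010715-141010994 on the - strand for Ifitm3. Capitals mark matches, on either strand, to GAAANNGAAA, the core of the interferon-stimulated response element through which interferon-activated factors bind DNA.
Ifitm1: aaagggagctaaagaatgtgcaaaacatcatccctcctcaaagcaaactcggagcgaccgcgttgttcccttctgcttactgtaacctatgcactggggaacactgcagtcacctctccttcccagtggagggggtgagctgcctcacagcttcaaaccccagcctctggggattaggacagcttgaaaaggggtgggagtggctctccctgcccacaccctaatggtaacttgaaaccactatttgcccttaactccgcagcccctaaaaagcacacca
Ifitm2: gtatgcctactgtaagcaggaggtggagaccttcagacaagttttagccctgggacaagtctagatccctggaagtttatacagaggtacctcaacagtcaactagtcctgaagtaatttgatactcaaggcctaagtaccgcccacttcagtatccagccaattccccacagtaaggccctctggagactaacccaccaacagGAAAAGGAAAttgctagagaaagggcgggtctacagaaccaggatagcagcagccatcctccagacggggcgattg
Ifitm3: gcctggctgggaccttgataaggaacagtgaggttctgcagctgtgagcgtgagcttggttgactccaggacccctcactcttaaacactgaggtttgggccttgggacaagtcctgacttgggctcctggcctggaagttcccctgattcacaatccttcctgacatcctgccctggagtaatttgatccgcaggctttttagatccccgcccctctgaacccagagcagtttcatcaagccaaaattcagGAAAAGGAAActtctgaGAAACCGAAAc
The Ifitm2 window held 1 match, beginning 46 bases before the start base. The Ifitm3 window held 2, beginning 2 and 19 bases after the start base, and the second shared its first bases with a match to TTCNNNGAA, the core of the gamma-activated site, at 13 to 21 bases after the start. The Ifitm1 window held neither core. That window is set on the RefSeq start base 140968076, whereas the GENCODE gene begins upstream of the window, at 140967221. Bases upstream of the window were not searched. Among 32851 RefSeq promoter windows of 27025 genes, each of 300 bases with 50 from the start base, the first core occurred in 3.44% and the second in 8.30%. In these full windows the core GAAANNGAAA was not found for Ifitm5, Ifitm6, Ifitm7 or Ifitm10, and Ifitm6 held 1 match to TTCNNNGAA. Windows also differed in CG dinucleotides, with 5 in that of Ifitm1, 4 in that of Ifitm2 and 5 in that of Ifitm3, against 32 and 28 at 2 of the 3 starts of Ifitm10 and a median of 7 over all windows (quartiles 3 and 20). A match is a description of these letters, and binding was not measured here.

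Ifitm1, Ifitm2 and Ifitm3 were strongly expressed at E13.5 and lower by 569-fold, 44.8-fold and 1044-fold at P3 (2154-fold for Ifitm3 without P3 library 1), whereas Ifitm10 was close to absent at E13.5 and present at the 3 later stages. Ifitm5, Ifitm6 and Ifitm7 were never above 20 normalized counts in any library. At E13.5 the family took 610 ± 33.2 reads per 1000000 (SD, n = 3). The shares were 148 ± 16.9 for E16.5, 21.9 ± 1.03 for P0 and 11.8 ± 0.808 for P3. The ranges of the 4 stages did not overlap on this scale, on which no size factor enters. These shares include the Ifitm1 reads at E16.5 and P0 that chose the family, so that step is a description only.

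**Figure D1:**
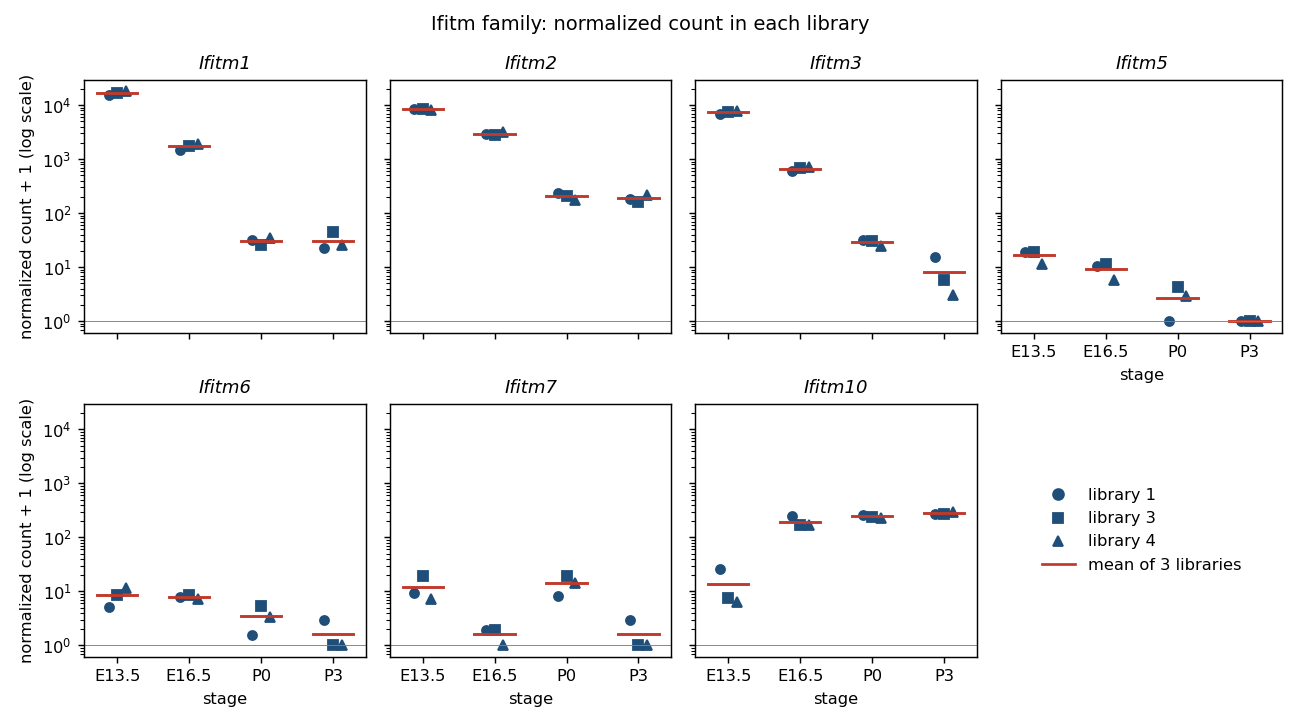
Normalized count plus 1 of each Ifitm gene (log axis) in every library, by stage; points are the 3 libraries of a stage, by their column number, and red bars their mean. Ifitm1, Ifitm2 and Ifitm3 step down from E13.5 to P0, Ifitm10 steps up from E13.5 to E16.5, and the other 3 genes stay below 20.

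Ifitm1, whose product sits mainly at the cell surface, had 15733, 16657 and 18169 normalized counts in E13.5 libraries 1, 3 and 4. The E16.5 libraries had 1450, 1776 and 1938, those of P0 had 30.8, 25 and 34.3, and those of P3 had 21.3, 43.2 and 24.3. The first 3 stages did not overlap, and P0 and P3 did. The stage means were 16853 ± 1229, 1722 ± 248, 30.02 ± 4.69 and 29.6 ± 11.9 (SD, n = 3), so the level was 57.3-fold lower at P0 than at E16.5, the difference for which the family was selected (36.3-fold with equal library totals). Between E13.5 and P3, which the selection did not use, Ifitm1 was 569-fold lower (log2 fold change -9.17, SE 0.205, limma adjusted p 1.65e-15). Only 5 of the 22384 tested genes had a lower fold change in that comparison.

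Ifitm2 encodes a protein found mainly in endosomes. E13.5 libraries 1, 3 and 4 held 8437, 8392 and 8273 normalized counts, and those of E16.5 held 2911, 2785 and 3189. The P0 libraries held 231.8, 209.8 and 175.7, and the P3 libraries 183.1, 163.0 and 214.6. Libraries of E13.5, E16.5 and the 2 postnatal stages formed 3 separate levels, with P0 and P3 overlapping. Ifitm2 fell 2.83-fold between E13.5 and E16.5 (log2 fold change -1.5, SE 0.114, limma adjusted p 2.72e-09). Within the Morc1 (+/-) tag P0 was 40.7-fold below E13.5 (log2 fold change -5.35, limma adjusted p 5.55e-16), or 18.1-fold (-4.18) with equal library totals. Within the Morc1 (-/-) tag its log2 fold change between E16.5 and P3 was -3.99 (limma adjusted p 6.48e-14). Between P0 and P3 its log2 difference was -0.14 (SE 0.114, limma adjusted p 0.282), which did not pass. Other scalings changed that call, to -0.58 (limma adjusted p 0.000161) with median-of-ratios factors and to -0.97 (1.04e-06) with equal library totals. The difference of P0 from E16.5, given without a test, was 14.4-fold, or 9.13-fold with equal library totals.

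Ifitm3, the fragilis gene and the family's best known restriction factor of influenza virus, fell in all 5 tested comparisons, against 4 of 5 for Ifitm2. It had 7024, 7446 and 7934 normalized counts at E13.5 and 614.5, 677.9 and 708.4 at E16.5. It then had 30.8, 29.9 and 23.2 at P0 and 14.5, 4.91 and 2.02 at P3. No stage overlapped another, although the P3 values rest on 15, 5 and 2 reads. Its level fell 11.2-fold from E13.5 to E16.5 (log2 fold change -3.48, SE 0.378, limma adjusted p 2.49e-07). It fell again from P0 to P3, by 3.91-fold in the means (log2 fold change -2.14, SE 0.378, limma adjusted p 7.49e-05). Within the Morc1 (+/-) tag P0 was 267-fold below E13.5 (log2 fold change -8.02, limma adjusted p 3.28e-12), or 119-fold (-6.87) with equal library totals. Within the Morc1 (-/-) tag P3 was 93.2-fold below E16.5 (log2 fold change -6.68, limma adjusted p 1.17e-10). Over the whole series, from E13.5 to P3, the means differed 1044-fold (log2 fold change -10.16, limma adjusted p 6.28e-13), and 2 of the 22384 tested genes had a lower fold change. From E16.5 to P0, given without a test, the means differed 23.9-fold, or 15.1-fold with equal library totals. P3 library 1, with 15 of the 22 P3 reads, set the size of the 3 folds that involve P3. Without it they were 8.06-fold against P0, 192-fold against E16.5 and 2154-fold against E13.5, and each still passed the limma test. Equal library totals gave 7.05-fold for P3 against P0.

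The falls of the 3 genes were unequal. Ifitm3 reads were 0.832 to 0.959 times those of Ifitm2 at E13.5, and the ratio was 0.211 to 0.243 in E16.5 libraries, 0.132 to 0.142 in P0 libraries and 0.00943 to 0.0794 in P3 libraries. This ratio, in which scaling cancels, had a separate range at every stage. Its log2 difference was -1.99 between E13.5 and E16.5 and -2.26 between P0 and P3. Each of the 5 tested comparisons gave p = 0.1 in a two-sided exact permutation test, which is the smallest p that 3 against 3 libraries can give, and 0.1 after adjustment over the 5, so the design could not reach 0.05. Ifitm2 reads rose relative to those of Ifitm1 as well, from 0.455 to 0.536 times at E13.5 to 1.57 to 2.01 times at E16.5 and 5.13 to 8.39 times at P0. At P3 that ratio was 3.77 to 8.83, overlapping P0, and it is given without a test because Ifitm1 at E16.5 and P0 chose the family. Over the 12 libraries, log2 levels of Ifitm1 and Ifitm2 had a Pearson r of 0.992, those of Ifitm1 and Ifitm3 0.971 and those of Ifitm2 and Ifitm3 0.970. The libraries fall into 4 stages and share their size factors, so these describe the common step-down and no p is given.

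Ifitm5, known as the osteoblast gene BRIL, was low from the start. It had 17.9, 18.5 and 10.5 normalized counts at E13.5, 9.54, 10.2 and 4.75 at E16.5, 0, 3.26 and 1.93 at P0, and 0 in all P3 libraries, where a count of 0 allows up to 3 reads. E13.5, E16.5 and P0 did not overlap, and P0 library 1 shared the 0 of P3. The means of E13.5 and P0 differed 9.05-fold, or 16.2-fold without P0 library 3 and 3.95-fold with equal library totals. At P3 the level was at least 5.15-fold lower than at E13.5 and at least 2.69-fold lower than at E16.5, taking 3 reads per library as the floor. Ifitm5 passed the filter on low values only through its 3 E13.5 libraries and 1 E16.5 library, so it had to be lower at P0 and P3, and its test results against those stages support nothing. From E13.5 to E16.5 the log2 difference was -0.88 (limma adjusted p 0.150), which did not pass. The 6 osteoblast markers summed to 21.03 to 30.6 normalized counts at E13.5 and to 330.4 to 475.3 at P3, the reverse order of Ifitm5 between these stages. The sum does not hold for every marker. Ibsp had 5.03 ± 5.49 at E13.5 and 0.655 ± 1.13 at P3, the direction of Ifitm5, with overlapping libraries. Bglap was at 0 in all E13.5 and all P3 libraries.

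Ifitm6 had 4.22, 7.62 and 10.5 normalized counts at E13.5 and 6.68, 7.44 and 6.33 at E16.5. It had 0.522, 4.35 and 2.41 at P0 and 1.94, 0 and 0 at P3, at most 10 reads in any library. It did not pass the filter, which asked for 10 normalized counts or more in 3 libraries, and was not tested, with E13.5 overlapping E16.5 and P0 overlapping P3, and E16.5 above P0.

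Ifitm7 alternated between stages. It had 8.44, 18.5 and 6.31 normalized counts at E13.5, 0.954, 0.930 and 0 at E16.5, 7.31, 18.5 and 13.51 at P0, and 1.94, 0 and 0 at P3. E13.5 overlapped P0 and E16.5 overlapped P3, and neither of the first pair overlapped either of the second. The level was at least 3.87-fold lower at E16.5 than at E13.5 and at least 4.31-fold lower at P3 than at P0. Ifitm7 passed the filter only through 1 E13.5 library and 2 P0 libraries, so these differences had to arise and their test results support nothing. From E13.5 to P0 the log2 difference was 0.27 (limma adjusted p 0.669), a direction that turned to -0.03 without E13.5 library 4, and equal library totals gave 1.34 (adjusted p 0.0385). From E16.5 to P3 both groups lay at the floor of 3 reads and no fold is given. The stages with reads are those tagged Morc1 (+/-), and with 1 tag per stage the part of genotype cannot be told apart from that of stage. A gene on the opposite strand, 2900011O08Rik, covers 10.9% of the exon bases of Ifitm7 and had 717 ± 10.8, 1415 ± 115, 614 ± 87.6 and 68.1 ± 2.47 normalized counts at the 4 stages, an order other than that of Ifitm7. The strand setting of the counting is not given in the sources used here, and its part in the Ifitm7 reads was not tested.

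Ifitm10, the member with the longest annotated exons and no settled function, moved the other way. It had 25.3, 6.53 and 5.26 normalized counts in E13.5 libraries 1, 3 and 4, and 245.2, 168.3 and 169.4 at E16.5. The P0 libraries had 261.1, 240.7 and 227.3, and the P3 libraries 271.3, 271.0 and 293.5. The E13.5 libraries lay below all others, E16.5 overlapped P0, and P3 lay above both. Ifitm10 reached the filter's 10 normalized counts in 1 E13.5 library and in all 3 libraries of each later stage. It thus passed through the stages in which it was high, and its tests against E13.5 are given as a description. Ifitm10 rose 15.7-fold between E13.5 and E16.5 (log2 fold change 4.16, SE 0.381, limma adjusted p 2.98e-08). Within the Morc1 (+/-) tag P0 was 19.6-fold above E13.5 (log2 fold change 4.50, limma adjusted p 7.82e-09). At P3 it was 22.5-fold higher than at E13.5 (log2 fold change 4.70, limma adjusted p 9.81e-09). E13.5 library 1, at 25.3, held most of the E13.5 signal, and without it the folds were 33.0 for E16.5, 41.2 for P0 and 47.3 for P3. Equal library totals gave 44.4-fold for P0 against E13.5. The difference of P3 from E16.5 was 0.54 on the log2 scale (limma adjusted p 0.218) and passed without E13.5 library 1 (adjusted p 0.0225). Between P0 and P3 the log2 difference was 0.20 (limma adjusted p 0.646), and it was -0.24 with median-of-ratios factors and -0.64 with equal library totals. Its log2 level had a Pearson r of -0.824 with that of Ifitm1, -0.777 with that of Ifitm2 and -0.821 with that of Ifitm3 over the 12 libraries.

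Of the 7 members, 6 passed the filter. Between E13.5 and E16.5, 5 members could be tested, of which Ifitm10 rose, Ifitm2, Ifitm3 and Ifitm7 fell and Ifitm5 did not pass. In that comparison 45.5% of all tested genes rose and 34.6% fell, with a median log2 fold change of 0.31. Between E13.5 and P0, Ifitm10 rose and Ifitm2, Ifitm3 and Ifitm5 fell, against 45.7% and 40.5% of all genes (median 0.20). Between P0 and P3, Ifitm3 and Ifitm7 fell and 3 members did not pass, against 40.1% of genes that rose and 36.4% that fell (median 0.05). That count of 2 was 4 with TMM factors, median-of-ratios factors or equal library totals, and 1 without E13.5 library 3, P0 library 3 or P0 library 4. Between E16.5 and P3, Ifitm2, Ifitm3 and Ifitm5 fell and 2 did not pass, against 34.2% that rose and 35.2% that fell (median -0.05). Between E13.5 and P3, where Ifitm1 could be tested too, 5 of 6 members fell and Ifitm10 rose, against 39.2% that rose and 31.2% that fell (median 0.16). Comparisons that share a stage share its libraries. Ifitm5, Ifitm7 and Ifitm10 passed the filter only through stages in which they were high, so these counts describe the family and support nothing.

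Because the members differ in length, levels of different genes were compared per kilobase of exon. At E13.5, Ifitm1 had 15405 ± 1124, Ifitm2 12775 ± 129 and Ifitm3 11015 ± 672 normalized counts per kb (SD, n = 3), and Ifitm10 had 2.58 ± 2.35. Ifitm1 then made up 39.2% of the family signal per kb, Ifitm2 32.6% and Ifitm3 28.1%. At E16.5, Ifitm2 held 63.4%, Ifitm1 22.0% and Ifitm3 13.8%. At P0, Ifitm2 held 70.6% and Ifitm10 11.5%, ahead of Ifitm3 with 9.26% and Ifitm1 with 6.27%. At P3, the shares were 74.4% for Ifitm2, 15.3% for Ifitm10, 7.23% for Ifitm1 and 2.81% for Ifitm3. On this scale the mixture passed from 3 members with 28.1% to 39.2% each to 1 dominant member. The summed signal per kb went from 39230 ± 1662 to 382 ± 31.0. Of the Ifitm2 exon bases, 40.9% are shared with Gm45717, a gene described below that had 0 reads. If reads there were not counted, the Ifitm2 values per kb are too low, so the order of the 3 members at E13.5 is uncertain.

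**Figure D2:**
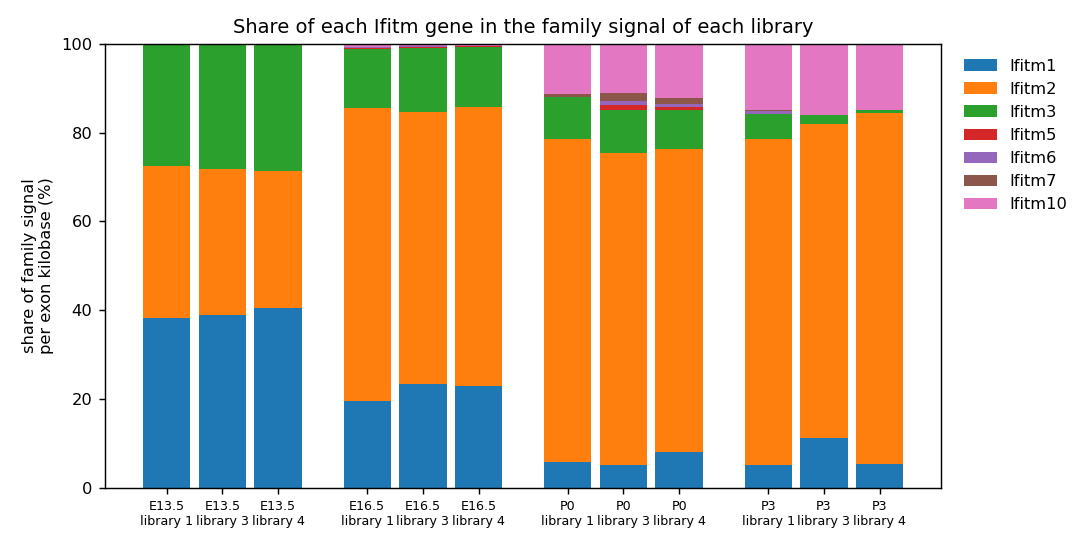
Share of each Ifitm gene in the family's normalized count per exon kilobase (percent, vertical axis) in each of the 12 libraries, stacked to 100. Ifitm1, Ifitm2 and Ifitm3 share the E13.5 bars, with 39.2%, 32.6% and 28.1% on average, and Ifitm2 fills most of every later bar, with Ifitm10 reaching 15.3% at P3.

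Family members resemble each other, so reads can match more than 1 of them. Coding sequences of Ifitm1 and Ifitm7 were 89.3% identical, those of Ifitm1 with Ifitm2 and with Ifitm3 82.1% each, and those of Ifitm2 with Ifitm3 80.9%. Exact sharing was smaller: of all runs of 50 bases in annotated transcripts, Ifitm1 shared 1.42% with Ifitm3, Ifitm3 shared 2.38% with Ifitm1 and 3.18% with Ifitm2, and Ifitm6 and Ifitm7 shared none with any other gene. Ifitm2 was the most exposed, with 48.5% of its runs also present in another transcript. Most of these lie in Gm45717, an annotated readthrough transcript that covers 40.9% of the exon bases of Ifitm2 and 29.7% of those of Ifitm5 and had 0 reads in every library. Others lie in processed pseudogenes, which had at most 12 reads in a library. Gm45717 has 495 exon bases, of which 268 are shared with Ifitm2 and 227 with Ifitm5 on the same strand. Its 0 reads therefore do not show whether it is expressed, as no read on shared bases was credited to it. How reads that match several genes were counted is not given in the sources used here. If reads on the shared bases were dropped, the levels of Ifitm2 and Ifitm5 relative to other members are too low, which was not tested.

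Genes beside the block did not all follow it. Of the 3 protein-coding genes on the left, Cox8b had 0 reads in every library. Nlrp6, an inflammasome sensor, had 0.701 ± 1.21, 6.25 ± 1.20, 98.8 ± 5.69 and 8.18 ± 5.37 normalized counts at E13.5, E16.5, P0 and P3, highest where Ifitm1, Ifitm2 and Ifitm3 were already low. Pgghg, which encodes a glucosidase of collagen, fell from 1783 ± 127 at E13.5 to 406 ± 41.7 at E16.5 (log2 fold change -2.14, limma adjusted p 1.20e-10), in the direction of its Ifitm neighbours, and had 232 ± 35.2 at P0 and 295 ± 23.4 at P3. On the right, Gm17387 had at most 3 reads. B4galnt4, a glycosyltransferase gene, had 231 ± 36.7, 85.1 ± 25.3, 250 ± 11.1 and 360 ± 52.3. Pkp3, a desmosome component, rose from 28.7 ± 9.86 at E13.5 to 929 ± 167 at E16.5 (log2 fold change 5.004, limma adjusted p 6.67e-13), opposite to the block, then had 1463 ± 82.9 at P0 and 199 ± 28.1 at P3.

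**Figure D3:**
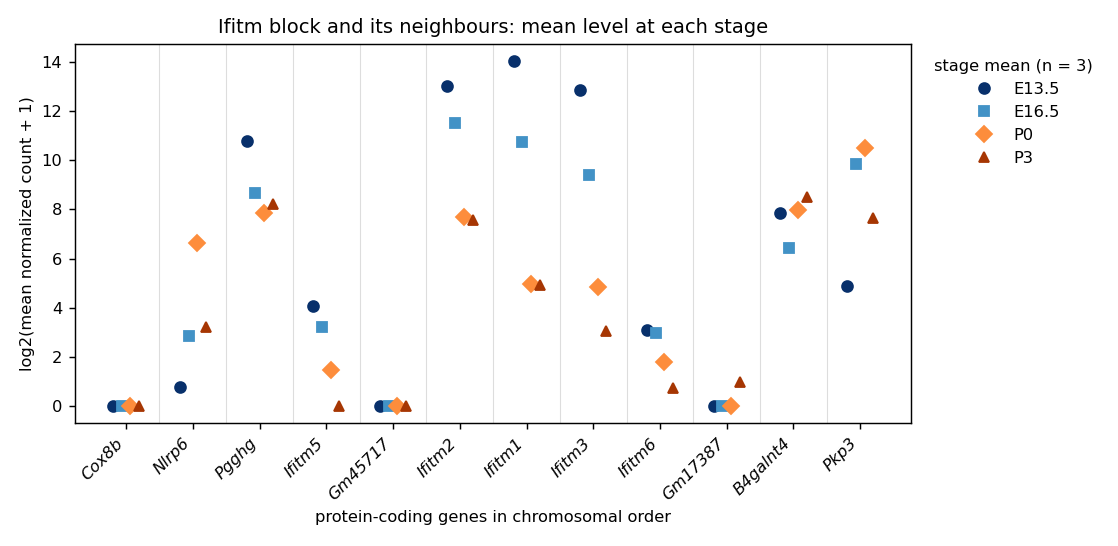
Mean level, as log2 of the mean normalized count plus 1 (vertical axis, n = 3 per stage), of the protein-coding genes of the chromosome 7 Ifitm block and 3 on each side, in chromosomal order. Ifitm2, Ifitm1 and Ifitm3 descend from E13.5 to P0, Pgghg descends with them from 1783 to 232, and Pkp3 climbs from 28.7 to 1463.

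Interferon-stimulated genes offered a comparison with other targets of the pathway that raises Ifitm transcripts. Of 34 listed genes 32 were tested, and 20 rose and 6 fell between E13.5 and E16.5, with a median log2 fold change of 1.32 against 0.31 for all genes, of which 45.5% rose and 34.6% fell. Oas3, a sensor of double-stranded RNA, went from 0 in all E13.5 libraries to 204 ± 22.7 normalized counts (limma log2 fold change 7.68, adjusted p 1.83e-12), and Ifi44 from 0 to 136.5 ± 8.46 (limma log2 fold change 7.10, adjusted p 2.41e-10), both fitted values that depend on the added count of 1. Zbp1, a sensor of Z-form nucleic acid, fell from 179 ± 26.1 to 16.01 ± 3.36 (limma log2 fold change -3.41, adjusted p 2.40e-06), and Trim25, a ubiquitin ligase of RNA sensing, from 1621 ± 91.4 to 388 ± 41.5 (limma log2 fold change -2.07, adjusted p 6.37e-12). By count, most listed genes that passed moved opposite to Ifitm2 and Ifitm3 in this step, while 6, Zbp1 and Trim25 among them, fell as Ifitm2 and Ifitm3 did. Ifit1, Oas3, Oasl1, Mx1, Usp18, Dhx58, Ifi44, Samd9l and Psmb8 stayed below 10 normalized counts in all E13.5 libraries. They passed the filter only through later stages, which favoured a rise. Their tests against E13.5, and the counts and medians that hold them, therefore support nothing.

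Between E13.5 and P3, 16 interferon-stimulated genes rose, 9 fell and 7 did not pass (median 0.57, or 0.47 with 5 genes at their bound, against 0.16 for all genes). That is 50% that rose and 28.1% that fell, against 39.2% and 31.2% of all tested genes. The genes that passed the filter only through stages after E13.5 enter here too, so these counts and medians support nothing. Oasl1, which is 1 of those genes, rose to 274 ± 27.6 from 3.56 ± 3.24 (limma log2 fold change 6.33, adjusted p 5.32e-09), given as a description. The lowest values were those of Zbp1 (limma log2 fold change -6.96, adjusted p 4.97e-10) and Ddx58, which encodes the RNA sensor RIG-I and fell from 7509 ± 227 to 90.7 ± 13.7 (limma log2 fold change -6.37, adjusted p 2.38e-16). Both fell less, on this scale, than Ifitm1 and Ifitm3. Isg15, a ubiquitin-like modifier, had 145 ± 21.1, 126 ± 37.5, 10.3 ± 4.85 and 3.88 ± 5.12 normalized counts at the 4 stages. Bst2, or tetherin, which holds budding viruses at the cell surface, had 3562 ± 100, 1799 ± 167, 489 ± 59.9 and 579 ± 60.1.

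From P0 to P3, 9 interferon-stimulated genes rose, 17 fell and 6 did not pass, with a median of -1.13 (-1.04 with 1 gene at its bound). Thus 28.1% rose and 53.1% fell, against 40.1% and 36.4% of all tested genes (median 0.05). Oasl2 (limma log2 fold change 2.47, adjusted p 2.60e-09) and Psmb9, an immunoproteasome subunit (limma log2 fold change 1.52, adjusted p 2.16e-05), rose most, and Ddx58 (-3.99) and Samd9l (-3.70) fell most. From E13.5 to P0, 18 rose (56.2%) and 8 fell (25%), with a median of 1.83, against 45.7% and 40.5% of all genes. These counts and this median hold the genes that passed the filter only through stages after E13.5, and support nothing. From E16.5 to P3, 10 rose (31.2%) and 16 fell (50%), with a median of -0.73, against 34.2% and 35.2%. The medians kept their signs with TMM factors, median-of-ratios factors and equal library totals. With equal library totals 2 rose and 25 fell from P0 to P3. The counts were then 23 and 6 from E13.5 to P0 and 9 and 18 from E16.5 to P3.

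**Figure D4:**
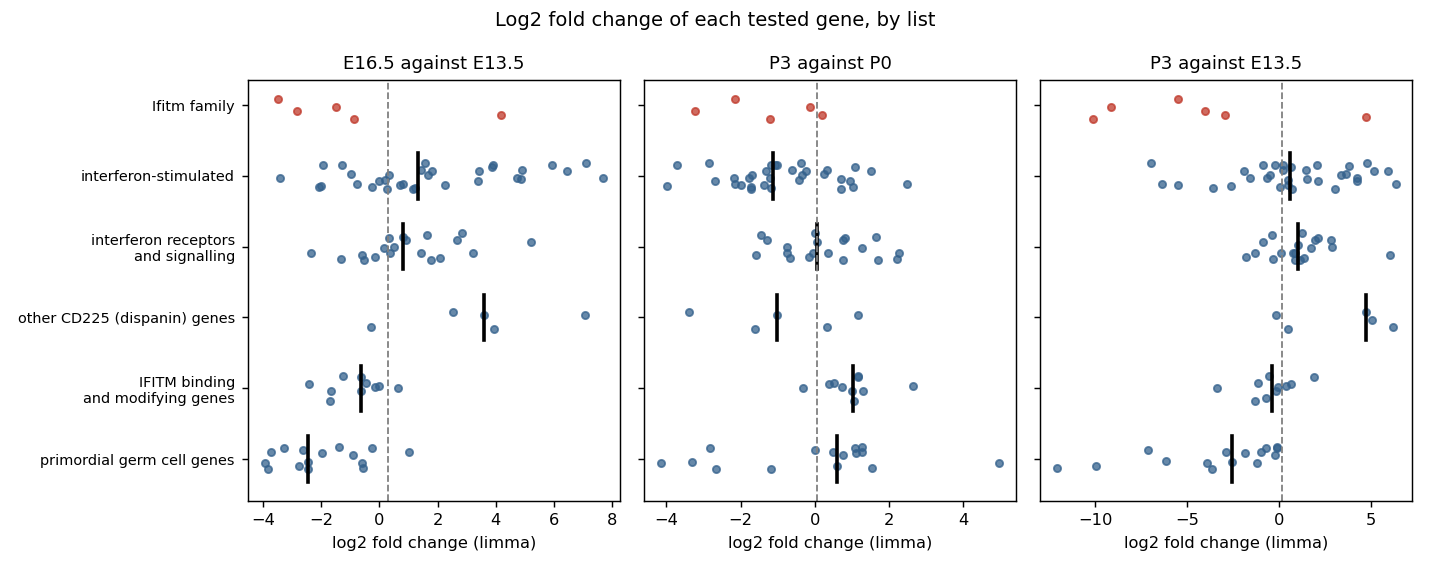
Limma log2 fold change (horizontal axis) of each tested gene in the Ifitm family and 5 gene lists, in 3 comparisons of stages; points are genes, black bars list medians and the dashed line the median of all 22384 tested genes. Ifitm1 appears only in the comparison of P3 with E13.5, where it and Ifitm3 lie at -9.17 and -10.16, below every interferon-stimulated gene, while the median of those genes is 0.57. Some of those genes passed the filter only through stages after E13.5, which favoured a higher median.

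Receptors and signal carriers of the interferon pathway carry the signal that raises Ifitm transcripts. Of 19 tested, 13 rose (68.4%) and 3 fell (15.8%) between E13.5 and E16.5 (median 0.80), against 45.5% and 34.6% of all tested genes. Between E13.5 and P3, 13 rose (68.4%) and 5 fell (26.3%), with a median of 1.04, against 39.2% and 31.2%. Ifnar1, a chain of the type I interferon receptor, had 2418 ± 197, 4223 ± 422, 1378 ± 203 and 4321 ± 469 normalized counts at the 4 stages, an order unlike that of any Ifitm gene. Its partner Ifnar2 had 85.1 ± 15.4, 289.5 ± 51.6, 352 ± 48.5 and 590.4 ± 6.38. Among the transcription factors, Irf1 fell from 14525 ± 300.3 at E13.5 to 2874 ± 236 at E16.5 (limma log2 fold change -2.34, adjusted p 5.79e-13), in the direction of Ifitm1, Ifitm2 and Ifitm3. Irf1 then rose from 887 ± 124 at P0 to 4225 ± 111 at P3 (limma log2 fold change 2.26, adjusted p 1.50e-12), where Ifitm3 fell. Irf5 rose from 15.6 ± 6.02 at E13.5 to 584 ± 85.7 at E16.5 (limma log2 fold change 5.21, adjusted p 1.70e-12) and Irf8 from 83.3 ± 11.2 to 784 ± 143 (limma log2 fold change 3.21, adjusted p 2.89e-12). Socs1, an inhibitor of the pathway, fell in that step (limma log2 fold change -1.32, adjusted p 9.97e-07). From E13.5 to P0, 12 rose and 5 fell (median 0.55), against 45.7% and 40.5% of all genes. From E16.5 to P3, 8 rose (42.1%) and 7 fell (36.8%), with a median of -0.26, near the 34.2% and 35.2% of all genes. From P0 to P3, 9 rose (47.4%) and 6 fell (31.6%), near the 40.1% and 36.4% of all genes. The median of that step was 0.07, and it became -0.11 with TMM factors, -0.37 with median-of-ratios factors and -0.77 with equal library totals.

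Most tested genes of the wider CD225 superfamily rose after E13.5, as Ifitm10 did. Of 10 listed, 8 were found in the table and 5 passed the filter. Between E13.5 and E16.5, 4 of these rose and none fell (median 3.58, or 2.54 with 1 gene at its bound). Of all tested genes, 45.5% rose and 34.6% fell in that step. Prrt1, Trarg1 and Syndig1l passed the filter only through stages after E13.5, which favoured a rise. Their tests against E13.5, and the counts that hold them, therefore support nothing. Prrt1, a partner of glutamate receptors, had 4.21 ± 7.29 normalized counts at E13.5 and 317 ± 52.2 at E16.5 (limma log2 fold change 7.05, adjusted p 5.40e-08). Syndig1l went from 4.61 ± 4.74 to 57.3 ± 9.26 (limma log2 fold change 3.92, adjusted p 6.15e-06). Trarg1, a regulator of glucose transporter traffic, and Syndig1, a synapse protein, also rose (limma adjusted p 1.93e-06 and 1.29e-06), and Tmem91 did not pass (log2 difference -0.29, limma adjusted p 0.236). From E13.5 to P0, 4 rose and Tmem91 fell (median 5.06), against 45.7% and 40.5% of all genes. All 5 rose with equal library totals. From E13.5 to P3, 3 rose and none fell (median 4.71), against 39.2% and 31.2%. From P0 to P3, Syndig1 and Syndig1l fell and none rose (median -1.02), against 36.4% that fell and 40.1% that rose. From E16.5 to P3, 1 rose and 1 fell, against 34.2% and 35.2%. The median there was 0.13, and it turned to -0.05 with median-of-ratios factors or equal library totals.

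The counts for genes whose proteins bind or modify IFITM proteins depended on the scaling. Of 10 genes, 7 fell and 1 rose between E13.5 and E16.5 (median -0.64), but with equal library totals 4 fell and 3 rose (median -0.13). Among all tested genes 34.6% fell and 45.5% rose in that step. Between P0 and P3, 8 rose and 1 fell (median 1.03), but with equal library totals 5 rose and 2 fell (median 0.19). Among all tested genes 40.1% rose and 36.4% fell there. Setd7, a methyltransferase known to act on IFITM3, fell from 1788 ± 105 at E13.5 to 334.5 ± 56.5 at E16.5 (limma log2 fold change -2.43, adjusted p 1.17e-09). Nedd4, a ubiquitin ligase of IFITM3, fell from 30404 ± 1499.9 to 9645 ± 1227 (limma log2 fold change -1.66, adjusted p 7.75e-11). Kdm1a, the demethylase that opposes Setd7 on IFITM3, was the gene that rose (limma log2 fold change 0.64, adjusted p 2.58e-07). Zdhhc20, a palmitoyltransferase of IFITM3, had 4590 ± 121, 2960 ± 192, 849 ± 67.8 and 2067 ± 69.5 normalized counts. Cd9, a tetraspanin, rose from 3268 ± 32.9 at P0 to 20557 ± 1251 at P3 (limma log2 fold change 2.65, adjusted p 9.84e-15), and Cd81, another, from 2687 ± 627 to 5918 ± 176 (limma log2 fold change 1.17, adjusted p 1.10e-06). From E13.5 to P0, none rose and 9 fell (median -0.98), against 45.7% and 40.5% of all genes. With equal library totals 5 rose and 4 fell (median 0.19). From E16.5 to P3, 5 rose and 3 fell (median 0.31), against 34.2% and 35.2%. From E13.5 to P3, 3 rose and 5 fell (median -0.38), against 39.2% and 31.2%.

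The known genes of primordial germ cells mostly fell together with Ifitm1, Ifitm2 and Ifitm3 in the fetal steps. Of 15 tested, 14 fell and 1 rose between E13.5 and E16.5 (median -2.44), against 34.6% of all genes that fell, and all 15 fell between E13.5 and P0 (median -3.14), against 40.5%. With equal library totals 11 fell and 2 rose in the first of these, and 13 fell and none rose in the second. Dppa3, or stella, had 79747 ± 2546 normalized counts at E13.5 and 14676 ± 719, 182 ± 26.9 and 17.8 ± 5.22 at the following stages, and was lower still than any Ifitm gene in its fold change from E13.5 to P3 (limma log2 fold change -12.09, adjusted p 8.26e-18). Nanog, a pluripotency factor, fell from 3615 ± 396 to 238 ± 55.3 between E13.5 and E16.5 (limma log2 fold change -3.94, adjusted p 3.22e-11), and Prdm14, a factor of germ cell specification, from 3624 ± 52.3 to 255 ± 26.4 (limma log2 fold change -3.83, adjusted p 2.44e-10). Both fold changes lay near the -3.48 of Ifitm3. Dnd1, an RNA-binding protein that guards germ cells, was the gene that rose (limma log2 fold change 1.02, adjusted p 6.90e-09). The list divided between P0 and P3, with 8 that rose and 5 that fell (median 0.59, or -0.23 with equal library totals). Of all tested genes, 40.1% rose and 36.4% fell between P0 and P3. Nanos3, an RNA-binding factor of germ cell survival, rose there by 4.97 on the log2 scale (limma adjusted p 1.06e-12), while Nanog (-4.15) and Dppa3 (-3.31) fell with Ifitm3. From E16.5 to P3, 3 rose and 7 fell (median -0.39), against 34.2% and 35.2% of all genes. From E13.5 to P3, none rose and 13 fell (median -2.58), against 39.2% and 31.2%. With equal library totals 3 rose and 10 fell from E16.5 to P3, and 2 rose and 11 fell from E13.5 to P3.

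The 5 genes most like each abundant member were ranked among 13609 genes by Pearson correlation of log2 levels over the 12 libraries, as a description with no p. Those of Ifitm1 were Abcd4 (r = 0.997), Mccc1 (0.995), Rps4x (0.994), Slc16a4 (0.992) and Fancb (0.992). Those of Ifitm2 were Glmp (0.997), Hsph1 (0.996), Rps4x (0.995), Hibadh (0.993) and Trmt1l (0.992). Those of Ifitm3 were Gatb (0.996), Nemf (0.992), Eef1a1 (0.987), Tnnt1 (0.987) and Krt42 (0.987). Family members and genes with predicted-gene names were left out of the ranking, so no gene of the chromosome 7 block could appear. The steps of the genes listed were mostly shallower than those of the members. Abcd4, a lysosomal transporter of the ABC family, had 1550 ± 61.5, 918 ± 81.1, 335 ± 19.1 and 299 ± 23.2 normalized counts. Slc16a4, of the monocarboxylate transporter family, came closest in size to Ifitm1, with 1256 ± 57.0, 481 ± 77.2, 27.3 ± 4.81 and 37.1 ± 13.9. Those of Ifitm10 were Nefl (0.997), Itga7 (0.996), Dclk3 (0.994), Wee2 (0.988) and Dennd2d (0.988). Itga7, a laminin-binding integrin, had 2.11 ± 3.66, 206 ± 48.3, 391.9 ± 27.96 and 565 ± 143, a rise from near 0 like that of Ifitm10.

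IFITM genes are also expressed by endothelial cells, macrophages and other somatic cells, so markers of those cells were set beside the family. The 6 endothelial markers summed to 4969 to 5715 normalized counts at E13.5. The sums of E16.5, P0 and P3 were 748 to 958, 1235 to 1467 and 670 to 827. The sum was highest where Ifitm1, Ifitm2 and Ifitm3 were highest, but the single markers were divided. Pecam1 had 4618 ± 400.3 at E13.5 and 282 ± 74.3 at E16.5, and Cldn5 had 503 ± 26.3 and 10.7 ± 5.15. The others were lower at E13.5 than at E16.5. Tek had 98.0 ± 10.9 and 387 ± 39.6, and Esam 19.3 ± 12.3 and 86.0 ± 40.9. Cdh5 had 9.92 ± 6.39 and 29.8 ± 5.18, and Kdr 2.84 ± 3.22 and 38.5 ± 5.40. The part of endothelial cells in the Ifitm1, Ifitm2 and Ifitm3 signal was not tested. At E13.5, 8 macrophage markers summed to 38.1 to 102, the lowest of the 4 stages, against 992 to 1170 at E16.5, with Fcgr1 at 0 in all E13.5 libraries. The 5 neutrophil and 7 mast cell markers were at 0 in all E13.5 libraries, with neutrophil sums of 261 to 306 and mast cell sums of 1520 to 3235 at P0. By their means, the Sertoli, peritubular, erythroid and osteoblast lists were also lowest at E13.5, and the Leydig list was lowest at P3 (499 to 527). The marker sums that rose with Ifitm10 between E13.5 and E16.5 include the peritubular list (198 to 230, then 1628 to 1960) and the Sertoli list (1372 to 2150, then 2909 to 6109), and their part in the Ifitm10 signal was not tested.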

How the data were processed

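The authors deposited 1 table of normalized counts (unit: signal) for 55487 mouse genes in 12 libraries, prepared with SMART-seq v4 amplification and a TruSeq mRNA kit, per the labels' protocols. The submitters' processing notes name bcl2fastq 2.20, cutadapt 1.18, HISAT2 2.1.0, featureCounts 1.5.2 and DESeq2 1.26.0, and the builds mm10 and GRCm38. The deposited signal is a featureCounts read count divided by 1 RLE (relative log expression) size factor per library, per the file's name. The annotation release, strand setting and treatment of multiply mapped reads are not given in the sources used here. All values (100%) were whole multiples of 1 step per library within 0.001, so reads and size factors (0.919 to 2.07) were recovered. Column heads carry numbers that differ from the titles' replicate numbers, so columns were assigned to stages only. Replicate libraries differed by more than sampling noise, with chi-square values per gene of 5.75 to 21.2.

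Members and gene lists were chosen with earlier results of these data known. Symbols matched 55141 identifiers (99.4%). Named genes were all members, 3 protein-coding genes on each side of the block, the 2 highest and 2 lowest called genes of each list in a comparison with others whose role is described, and the 5 genes most like each member with a stage mean of at least 100. Log2(normalized count + 1) of the 22384 genes with at least 10 in at least 3 libraries was tested with limma 3.58.1 (R 4.3.3; trend, all 12 libraries in 1 fit), with Benjamini-Hochberg adjusted p under 0.05 over all tested genes. Fold changes are on that scale, which understates those of low genes, and folds quoted as such are ratios of means. A stage with at most 3 reads in every library was at the floor, and bounds use 3 reads per library. Intervals and floors cover counting error only, as reads carry no molecular identifiers. Alternatives were TMM, median-of-ratios and equal-total scaling, pseudocounts of 0.1 and 10, dropping the filter or asking for a mean of 100 or more, a minimum log2 fold change of 1 in either direction, a 2-stage fit, edgeR 4.0.16 (quasi-likelihood) and DESeq2 1.42.0 on recovered reads, and leaving out each library. The fits were tested on simulated data. Promoters are RefSeq windows, matched for all 7 members. Coding sequences were aligned with Biopython 1.88, and Python 3.11.15, pandas 2.3.3 and matplotlib 3.10.9 served the remaining steps.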

Additional observations from a re-analysis of the deposited data

How the results depend on the processing

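No paired analysis was possible because the column heads carry numbers that do not match the replicate numbers of the titles. The number of members that changed kept within 1.5 times its value under all 23 alternatives in 4 of the 5 comparisons. Between P0 and P3 it was 2 in the reported fit, 4 with TMM factors, with median-of-ratios factors and with equal library totals, and 1 with a mean of at least 100. Leaving out single libraries gave 1 to 3 members, and 1 arose without E13.5 library 3, P0 library 3 or P0 library 4, where fewer members passed the filter. The calls of Ifitm3 held in 115 of 115 values and that of Ifitm1 in 23 of 23, as did 112 of 115 values of Ifitm2, the exceptions being the 3 scalings of P3 against P0 (TMM gave -0.31). For P3 against P0, Ifitm10 turned to -0.24 with median-of-ratios factors (adjusted p 0.566) and to -0.64 with equal library totals (adjusted p 0.123). Ifitm7 turned to -0.0298 for P0 against E13.5 without E13.5 library 4, the lowest of values up to 0.607 without single libraries. For P3 against E16.5, where both stages are at the floor, Ifitm7 turned to 0.12 with edgeR, 0.13 with DESeq2 and as high as 0.139 without single libraries, the lowest being -0.638. Calls gained were those of Ifitm5 for P3 against P0 under 7 alternatives and for E16.5 against E13.5 with a pseudocount of 10, of Ifitm7 for P0 against E13.5 with equal library totals, and of Ifitm10 for P3 against E16.5 with a 2-stage fit (adjusted p 0.0178), edgeR (0.0498), DESeq2 (0.0183) or without E13.5 library 1 (0.0225). The cause was not tested. For the lists, 542 of 575 counts stayed within 1.5 times.

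Equal library totals moved the median of all genes by 0.46 for E16.5 against E13.5, -0.82 for P3 against P0, 1.13 for P0 against E13.5, -0.17 for P3 against E16.5 and 0.30 for P3 against E13.5. The share of called genes that rose moved from 56.8% to 69.1%, from 52.4% to 26.5% (39.3% with median-of-ratios factors), from 53.0% to 76.0% and from 55.7% to 68.4% for these comparisons in turn, leaving out P3 against E16.5. With a mean of at least 100, the genes that changed numbered 11459, against 17932, for E16.5 and E13.5, 11249, against 17122, for P3 and P0, and 11968, against 19280, for P0 and E13.5, with fewer genes tested. With a minimum log2 fold change of 1 in either direction they numbered 10138 in place of 15550 for P3 against E16.5 and 10162 in place of 15755 for P3 against E13.5. Depth limits Ifitm5, Ifitm6 and Ifitm7, and Ifitm3 at P3.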
